A study of Homo sapiens with 4 samples.

Results

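Tubulin gene expression was examined in the human line MHCC-97H, derived from hepatocellular carcinoma and selected for metastatic capacity, carrying a short hairpin RNA (shRNA) against UCK2 or a control shRNA. The members were chosen by gene symbol from the deposited expression table: 3 alpha-tubulin genes (TUBA1A, TUBA1B, TUBA1C), 6 beta-tubulin genes (TUBB, TUBB2A, TUBB2B, TUBB3, TUBB4B, TUBB6) and the gamma-tubulin gene TUBG1. These 10 genes hold 11 of the 33478 entries, since the symbol TUBB3 stands at 2 of them. The list was drawn up with levels in these libraries and the difference of TUBB3 between groups already known, so both are given for the members as descriptions, without p-values. There were 2 libraries labelled UCK2 shRNA and 2 labelled control shRNA. All come from the same line, and the titles of the UCK2 shRNA pair share a letter B that is not explained. The labels do not say whether B names a single hairpin, nor whether replicates were grown apart.

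Alpha- and beta-tubulin form the heterodimer that polymerises into microtubules, the filaments of the mitotic spindle and of intracellular transport. Gamma-tubulin nucleates microtubules at centrosomes as part of a ring complex. Vertebrates carry several genes for alpha- and for beta-tubulin, called isotypes, whose products differ mostly in the acidic tail at the carboxyl end. TUBB3, class III beta-tubulin, is widely used as a marker of neurons and is also found in carcinomas. Cells lower the stability of tubulin mRNA when free tubulin is in excess, and the factor TTC5 reads the first residues of the emerging chain at the ribosome.

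UCK2 encodes uridine-cytidine kinase 2 and measured 120.5 and 67.8 TPM in libraries labelled UCK2 shRNA, against 135.7 and 93.6 TPM in the control libraries. TPM is a level of transcripts relative to the whole library and corrected for gene length. The UCK2 values overlapped between groups, so directions below rest on the titles. In each group, 1 library has a description whose numbering of the line or of the gene departs from its title. The entries used here sum to 676811 and 643063 TPM in libraries labelled UCK2 shRNA and to 850379 and 850534 TPM in the controls. The deposited values of most genes were also lower in libraries labelled UCK2 shRNA: the median log2 difference of the 14038 genes tested was -0.22. Whether the smaller sums account for this was not tested. Differences are given as deposited and after median-ratio scaling, which divides each library by a factor set by its genes. Scaling brought the median log2 difference to -0.01. The factors were 0.918 and 0.928 for UCK2 shRNA replicates 1 and 2, against 1.19 and 1 for control replicates 1 and 2. Scaling thus lowers control replicate 1 most, although the sums of the controls were nearly equal. After scaling UCK2 measured 131.3 and 73.1 in libraries labelled UCK2 shRNA, against 114.4 and 93.3 in the controls, again with overlap. Its log2 difference was -0.31 ± 0.30 as deposited and -0.08 ± 0.28 after scaling (SE). TPM keeps no read depth, so no counting interval is given. In bulk RNA, fewer cells with a transcript and less of it per cell cannot be told apart.

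The coding sequences show what reads could tell apart. The last 60 bases before and including the stop codon are shown for the 6 beta-tubulin genes, because the isotypes differ most there. Capitals mark bases that differ from TUBB4B, or face a gap in it, when the coding sequences are aligned end to end. TUBB4B is the most abundant beta-tubulin gene in these cells.
TUBB4B: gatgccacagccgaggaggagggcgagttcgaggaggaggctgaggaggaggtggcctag
TUBB: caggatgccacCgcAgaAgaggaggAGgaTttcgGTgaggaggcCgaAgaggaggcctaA
TUBB3: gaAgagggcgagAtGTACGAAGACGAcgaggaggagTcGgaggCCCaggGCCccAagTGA
TUBB2A: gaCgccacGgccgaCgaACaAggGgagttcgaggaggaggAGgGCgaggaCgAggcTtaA
TUBB2B: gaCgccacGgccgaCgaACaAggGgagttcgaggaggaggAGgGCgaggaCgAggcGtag
TUBB6: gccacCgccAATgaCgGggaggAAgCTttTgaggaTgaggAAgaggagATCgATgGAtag
Of these 60 bases, 26 were so marked in TUBB3, 21 in TUBB6, 15 in TUBB2A, 14 in TUBB2B and 11 in TUBB. These counts mix replaced bases with bases that face a gap, and TUBB4B bases missing from the other gene are not counted. Of the 1353 coding bases of TUBB3, 1338 aligned with a base of TUBB4B. All sequences were read from GENCODE 29 transcripts on GRCh38, and all 10 members were matched.

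Over the whole coding sequence, TUBB2A and TUBB2B were 98.1% identical, with an unbroken identical run of 725 bases. Of all stretches of 150 bases in the TUBB2A transcript, the read length in the series' description, 49.4% occur unchanged in a transcript of another gene, and 39.4% of those in TUBB2B do so. The alpha-tubulin genes were 96.3% to 97.3% identical, and the shared portion was 19.1% for TUBA1B, 6.77% for TUBA1C and 7.02% for TUBA1A. TUBB shared 2.5% of its stretches with the pseudogene TUBBP1, and TUBG1 shared 6.22% with TUBG2. TUBB4B and TUBB6 shared none. For TUBB3 the portion was 88.7%, nearly all of it with the second entry of that symbol. No source used here says how reads that fit more than 1 gene were counted, so the levels of TUBB2A, TUBB2B, TUBB3 and the alpha-tubulin genes are uncertain to that extent.

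The alpha-tubulin RNA of these cells came almost wholly from TUBA1B and TUBA1C, the genes of the main alpha-tubulins of dividing cells. TUBA1B (ENSG00000123416, chromosome 12, 49127782 to 49131397, minus strand) measured 861 and 563 TPM in libraries labelled UCK2 shRNA, against 947 and 1171 TPM in the controls. It ranked 117 and 154 among all entries by level in the UCK2 shRNA libraries, against 126 and 104 in the controls. TUBA1C (ENSG00000167553, chromosome 12, 49188736 to 49274603, plus strand) measured 614 and 482 TPM, against 666 and 927 TPM in the controls. For both genes UCK2 shRNA replicate 2 was the lowest library and control replicate 2 the highest, and the groups did not overlap.

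TUBA1A, the alpha-tubulin gene most used by developing neurons (ENSG00000167552, chromosome 12, 49184796 to 49189324, minus strand), was at the floor of the table. It measured 0.0717 and 0.240 TPM in libraries labelled UCK2 shRNA, against 0.184 and 0.0847 TPM in the controls, and it did not reach the mean of 1 TPM required for testing. Within the alpha-tubulin members, TUBA1B supplied 58.4% and 53.9% of the summed TPM in libraries labelled UCK2 shRNA, against 58.7% and 55.8% in the controls. TUBA1C supplied nearly all the rest. The mean TUBA1B portion was 56.1% ± 3.19 in the libraries labelled UCK2 shRNA and 57.3% ± 2.06 in the controls (SD, n = 2 each), a difference smaller than the spread between libraries.

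Among the beta-tubulin genes, TUBB4B and TUBB, the broadly expressed class IV and class I isotypes, led in all 4 libraries. TUBB4B (ENSG00000188229, chromosome 9, 137241213 to 137243707, plus strand) measured 395 and 343 TPM in libraries labelled UCK2 shRNA, against 428 and 560 TPM in the controls. TUBB (ENSG00000196230, chromosome 6, 30720201 to 30725426, plus strand) measured 323 and 240.4 TPM, against 339 and 413 TPM in the controls. The groups did not overlap for either gene, although UCK2 shRNA replicate 1 and control replicate 1 lay close together, and the ranges of the pair over the libraries overlapped each other. Within every library TUBB4B was above TUBB, by 1.22- to 1.43-fold.

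TUBB3 (ENSG00000258947, chromosome 16, 89921392 to 89938761, plus strand) was the third beta-tubulin gene by level. It measured 53.2 and 51.9 TPM in libraries labelled UCK2 shRNA, against 78.1 and 113.6 TPM in the controls. Both UCK2 shRNA libraries were nearly equal and below both controls, while the controls stood 1.45-fold apart. By rank among all entries, which scaling does not alter, TUBB3 stood at 2007 and 1927 in the libraries labelled UCK2 shRNA, against 1751 and 1123 in the controls.

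The other 3 beta-tubulin genes were lower. TUBB2A (ENSG00000137267, chromosome 6, 3153669 to 3157526, minus strand) measured 28.8 and 26.0 TPM in libraries labelled UCK2 shRNA, against 33.2 and 49.05 TPM in the controls, without overlap. TUBB2B (ENSG00000137285, chromosome 6, 3224261 to 3231730, minus strand), its near copy and a class II isotype of the developing brain, measured 2.20 and 2.58 TPM, against 2.135 and 3.59 TPM in the controls. TUBB6, the class V isotype (ENSG00000176014, chromosome 18, 12307669 to 12344320, plus strand), measured 4.47 and 3.47 TPM, against 4.37 and 4.71 TPM in the controls. The groups overlapped for TUBB2B and TUBB6. TUBB2B overlaps 328 bases of PSMG4, a gene on the opposite strand. PSMG4 measured 26.1 and 26.3 TPM in libraries labelled UCK2 shRNA, against 37.7 and 34.0 TPM in the controls. TUBB6 lies with 15377 bases over AFG3L2 on the opposite strand, which measured 45.1 and 39.6 TPM, against 58.0 and 57.2 TPM in the controls, and no source used here says whether counting used strand.

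TUBG1 (ENSG00000131462, chromosome 17, 42609676 to 42615234, plus strand) measured 66.9 and 56.9 TPM in libraries labelled UCK2 shRNA, against 100.9 and 106.0 TPM in the controls. The groups did not overlap, and the controls were within 1.05-fold of each other, the closest pair of controls among the members.

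**Figure D1:**
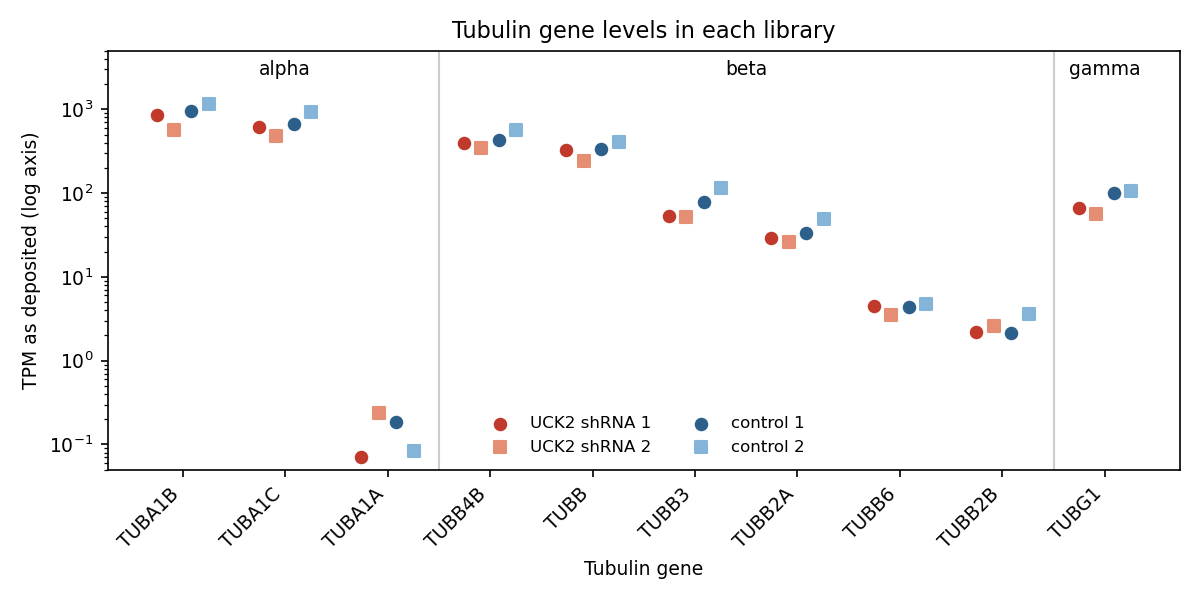
Level of each tubulin gene in TPM on a log axis, with 1 point per library (red, UCK2 shRNA replicates 1 and 2; blue, control replicates 1 and 2). TUBA1B and TUBA1C lie between 482 and 1171 TPM and TUBA1A below 0.25 TPM, while TUBB3 sits at 53.2 and 51.9 TPM in the UCK2 shRNA libraries and at 78.1 and 113.6 TPM in the controls.

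The order of levels was the same in every library apart from TUBG1 and TUBB3. From the highest it ran TUBA1B, TUBA1C, TUBB4B, TUBB, TUBG1, TUBB3, TUBB2A, TUBB6, TUBB2B and TUBA1A by the mean of 4 libraries. TUBG1 was above TUBB3 in 3 of 4 libraries and below it in control replicate 2. Ranges over the libraries overlapped between TUBA1B and TUBA1C, between TUBA1C and TUBB4B, between TUBB4B and TUBB, between TUBG1 and TUBB3, and between TUBB6 and TUBB2B. They did not overlap between TUBB and TUBG1, TUBB3 and TUBB2A, TUBB2A and TUBB6, or TUBB2B and TUBA1A. TUBB3 was 1.85- to 2.35-fold above TUBB2A within libraries.

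The share of an isotype within its family does not depend on how libraries are scaled against each other. TUBB3 supplied 6.59% and 7.78% of the summed beta-tubulin TPM in libraries labelled UCK2 shRNA, against 8.83% and 9.94% in the controls. Both UCK2 shRNA libraries were below both controls. The means were 7.18% ± 0.839 in the libraries labelled UCK2 shRNA and 9.38% ± 0.784 in the controls (SD, n = 2 each), a difference of -2.20 percentage points that ran from -2.79 to -1.61 when each library was left out in turn. The gap between UCK2 shRNA replicate 2 and control replicate 1 was smaller than the gap inside either group. An exact permutation test of 2 against 2 libraries cannot give a two-sided p below 0.333, so none was used.

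TUBB4B held 49.0% and 51.4% of beta-tubulin TPM in libraries labelled UCK2 shRNA, against 48.4% and 49.0% in the controls. TUBB held 40.0% and 36.0%, against 38.3% and 36.1% in the controls. TUBB6 held 0.554% and 0.520%, against 0.493% and 0.412% in the controls, so its portion was the higher one in both UCK2 shRNA libraries while its level overlapped. The ratio of TUBB4B to TUBB3 was 7.43 and 6.61 in the libraries labelled UCK2 shRNA, against 5.48 and 4.93 in the controls, and that of TUBB to TUBB3 was 6.08 and 4.64, against 4.34 and 3.63.

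Summed alpha-tubulin TPM over summed beta-tubulin TPM was 1.83 and 1.57 in the libraries labelled UCK2 shRNA, against 1.82 and 1.83 in the controls. UCK2 shRNA replicate 2 alone stood below the other 3 libraries, and without it the difference of -0.131 between the group means became -0.00155. TUBG1 amounted to 8.29% and 8.53% of the summed beta-tubulin TPM, against 11.4% and 9.27% in the controls.

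**Figure D2:**
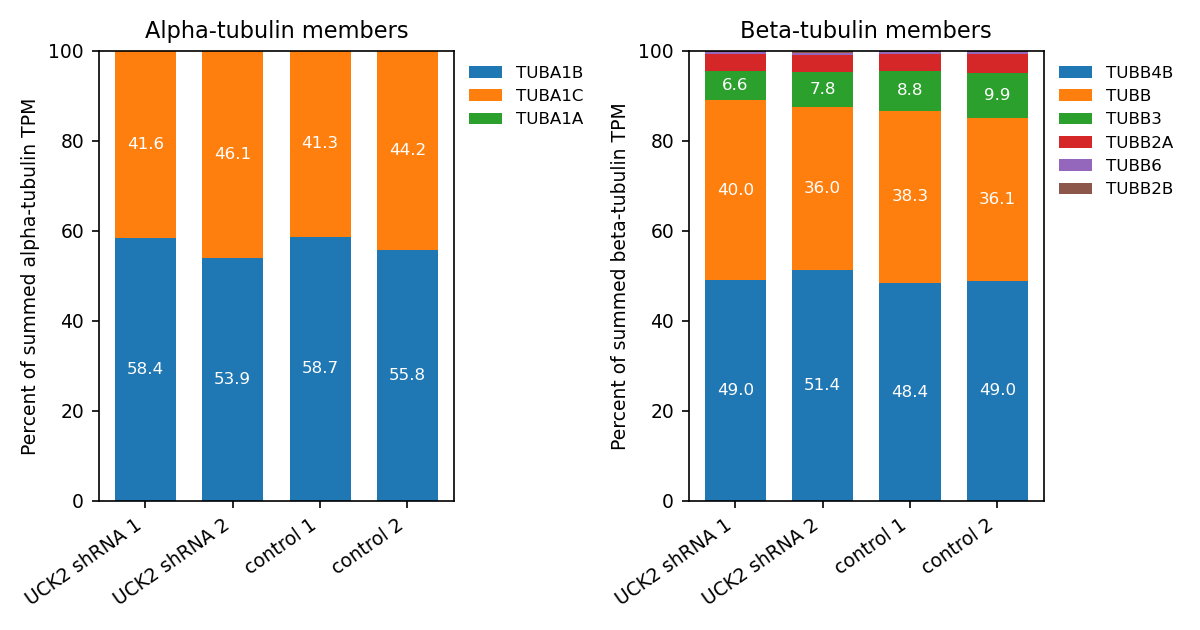
Stacked bars give the percent of summed alpha-tubulin TPM (left) and beta-tubulin TPM (right) from each member, with 1 bar per library. The TUBB3 segment is 6.59% and 7.78% in the UCK2 shRNA libraries and 8.83% and 9.94% in the controls, while TUBB4B and TUBB together make up most of each bar.

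Between the groups, all 9 members tested had log2 differences under 0 in the deposited values, and 7 of 9 did after scaling. Their median was -0.53 as deposited and -0.29 after scaling, beside -0.22 and -0.01 for all genes tested and -0.30 and -0.07 for genes averaging at least 10 TPM. As deposited the groups did not overlap, with the UCK2 shRNA libraries lower, for 7 of 9 members, and the same holds for 44.4% of all genes tested. After scaling this was so for 2 of 9, TUBB3 and TUBG1, against 15.5% of all genes. In the fit of limma across 14038 genes at an adjusted p under 0.05, 0% of genes were called as deposited, 0.0641% were called higher and 0% lower after scaling, and no member was among them. Without adjustment, p was under 0.05 for 194 higher and 1962 lower genes as deposited, and for 558 higher and 200 lower genes after scaling. Since the contrast was in view when the members were listed, nothing is read from these counts.

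The TUBB3 log2 difference was -0.83 ± 0.21 (SE, 95% interval -1.33 to -0.34), or 0.562-fold, on the log2(TPM + 1) scale. After scaling TUBB3 measured 57.9 and 55.9 in the libraries labelled UCK2 shRNA, against 65.9 and 113.3 in the controls. The scaled log2 difference was -0.59 ± 0.26 (SE, 95% interval -1.19 to 0.002), and that interval held 0. Control replicate 2 carried most of the scaled difference: without that library it was -0.21, and without control replicate 1 it was -0.98. Leaving out UCK2 shRNA replicates 1 and 2 gave -0.62 and -0.57.

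TUBG1 had a log2 difference of -0.74 ± 0.17 (SE, 95% interval -1.13 to -0.34), or 0.600-fold, and -0.50 ± 0.21 after scaling (95% interval -0.97 to -0.02). Its scaled values were 72.9 and 61.3 in the libraries labelled UCK2 shRNA, against 85.1 and 105.7 in the controls. Without control replicate 2 the scaled TUBG1 difference was -0.34, and over 18 alternative settings it ran from -0.85 to -0.34.

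The other alpha- and beta-tubulin genes lay closer to 0. The scaled log2 differences were -0.36 ± 0.30 for TUBA1B, -0.29 ± 0.29 for TUBA1C, -0.31 ± 0.27 for TUBB2A, -0.18 ± 0.26 for TUBB and -0.17 ± 0.26 for TUBB4B (SE). After scaling the UCK2 shRNA and control values of each of these genes overlapped. Control replicate 1 was then below UCK2 shRNA replicate 1 for all of them. As deposited it was above, and its scaling factor of 1.19 was the largest. The scaled log2 differences of TUBB2B and TUBB6 were 0.00 ± 0.32 and 0.03 ± 0.27. Control replicate 2 had the highest level of all 9 members as deposited and of 8 of 9 after scaling. Without it, the scaled median over the members was 0.08, with TUBB3, TUBG1 and TUBA1B below 0 and the other 6 above. Without UCK2 shRNA replicate 2 the scaled median was -0.08, and without control replicate 1 it was -0.63. TUBB2B and TUBB6, which average under 5 TPM, were above 0 in 5 and 4 of 17 alternative settings. Over 18 settings, TUBB was above 0 in 3, TUBB4B in 2, and TUBA1C and TUBB2A in 1 each. Besides scaling without control replicate 2, these settings were quantile normalization for TUBB and TUBB4B, and scaling alone and rescaling without the 50 most abundant genes for TUBB2B and TUBB6. TUBB and TUBB6 were also above 0 when scaled without UCK2 shRNA replicate 2, at 0.04 and 0.185. TUBB2B was so when scaled without UCK2 shRNA replicate 1, at 0.08, and as deposited without control replicate 2, at 0.11. The settings counted include other filters, another variance model and replicate blocks. These leave a gene's own difference unchanged and could not put any member above 0.

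**Figure D3:**
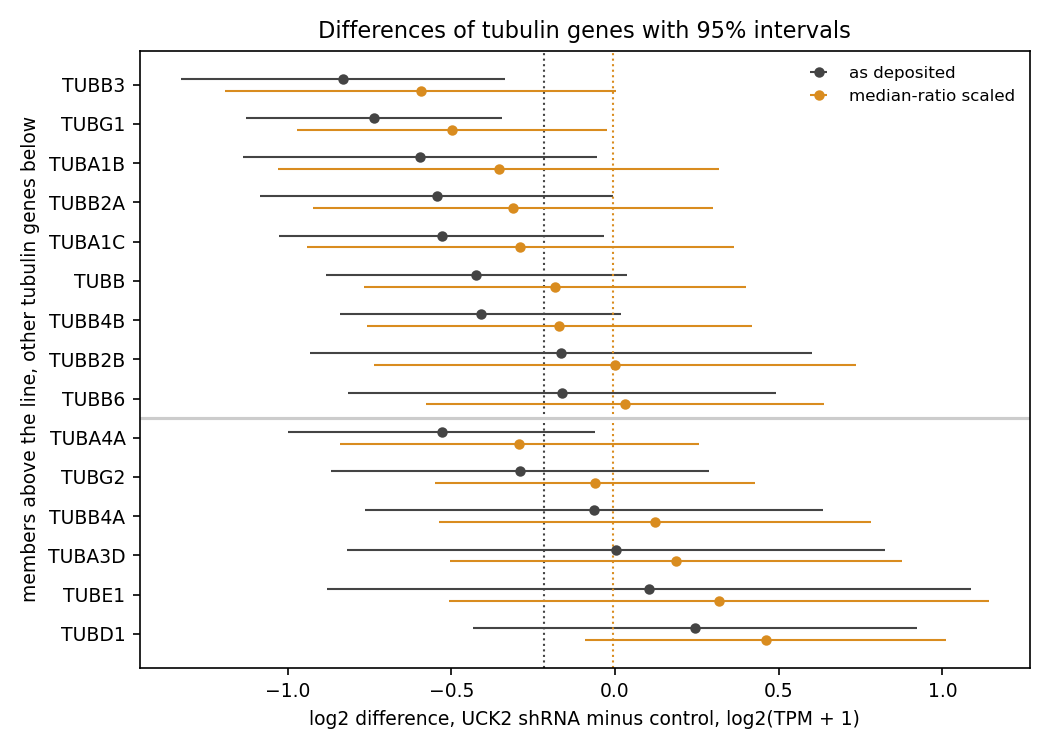
Points give the log2 difference, UCK2 shRNA minus control, of 9 tubulin members (above the line) and 6 other tubulin genes (below), as deposited (grey) and median-ratio scaled (orange), with 95% intervals from limma. Dotted lines mark the median of all genes tested, -0.22 and -0.01. TUBB3 and TUBG1 lie farthest to the left, at -0.83 and -0.74 as deposited.

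The TUBB3 locus holds overlapping entries. The second entry named TUBB3 (ENSG00000198211, chromosome 16, 89919165 to 89936092), called AC092143.1 in GENCODE 29, overlaps TUBB3 on the same strand over 14701 bases. It was listed at 0 and 0.0757 TPM in libraries labelled UCK2 shRNA, against 0.123 and 0.369 TPM in the controls. That entry also overlaps MC1R, the melanocortin receptor gene just before TUBB3, which measured 4.73 and 4.905 TPM, against 6.998 and 6.69 TPM in the controls. DEF8, which lies after TUBB3 on the chromosome, measured 91.7 and 85.2 TPM, against 115.3 and 136.7 TPM in the controls. The log2 differences of MC1R and DEF8 were -0.43 ± 0.25 and -0.50 ± 0.16 (SE), and -0.23 and -0.26 after scaling.

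Antisense entries overlap several members. RP11-161H23.5 lies wholly within the span of TUBA1C on the opposite strand and measured 201.9 and 148.4 TPM in libraries labelled UCK2 shRNA, against 198.9 and 260.2 TPM in the controls. That was 32.9% and 30.8% of TUBA1C, against 29.9% and 28.1% in the controls. The entry XXbac-BPG252P9.9, antisense within TUBB, measured 7.96 and 10.02 TPM in libraries labelled UCK2 shRNA, against 24.25 and 32.4 TPM in the controls. It was 2.46% and 4.17% of TUBB, against 7.15% and 7.86% in the controls. Its log2 difference was -1.55 ± 0.24 (SE, limma adjusted p = 0.294), and -1.32 ± 0.26 after scaling (adjusted p = 0.217). Both antisense entries were picked after their values were seen. Without known strand, reads of a gene and its antisense partner cannot be told apart.

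Markers bearing on the label of the cells were read as levels, since the extraction text mentions retinas and TUBB3 marks neurons. The 12 neuronal markers summed to 10.6 and 15.1 TPM in libraries labelled UCK2 shRNA, against 17.97 and 10.3 TPM in the controls. NEFM and STMN2 were at 0 in all libraries, DCX was at or below 0.0437 TPM, and 2 of 12, MAP2 and SYT1, reached a mean of 1 TPM. The 14 retina markers summed to 3.31 and 4.73 TPM, against 3.62 and 4.61 TPM in the controls, with GNAT2 at 0 throughout. Of these, 1 of 14, OPN1SW, reached a mean of 1 TPM. PDE6B measured 0.701 and 1.37 TPM in libraries labelled UCK2 shRNA, against 0.0373 and 0 TPM in the controls. The 12 hepatocyte and hepatoma markers summed to 2737 and 2371 TPM, against 3108 and 4189 TPM, most of it from the keratins KRT8 and KRT18. ALB, albumin, measured 20.1 and 18.6 TPM, against 29.5 and 25.8 TPM in the controls. GPC3 was at 0.0711 and 0.0203 TPM, against 0 in both controls.

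Of 13 further tubulin genes listed, 11 were in the table used here and 6 were tested. TUBA4A, an alpha-tubulin isotype that lacks the encoded terminal tyrosine of most others, measured 70.1 and 53.1 TPM in libraries labelled UCK2 shRNA, against 80.9 and 96.8 TPM in the controls. It was thus the third alpha-tubulin gene of these cells and supplied 4.53% and 4.82% of all alpha-tubulin TPM, against 4.765% and 4.41% in the controls. TUBG2, the second gamma-tubulin gene, measured 13.4 and 15.1 TPM, against 21.2 and 14.6 TPM in the controls. TUBE1, epsilon-tubulin of the centriole, measured 5.22 and 12.8 TPM, against 9.69 and 5.94 TPM, and both genes overlapped between groups. None of the 6 was called with limma as deposited or scaled. After scaling, 2 of 6 had a log2 difference below 0 and the median was 0.15.

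Of the genes that build, nucleate and modify tubulin, 91 were tested over the 6 lists other than the members, and 0 rose and 0 fell with limma over all genes (smallest adjusted p = 0.294). At an unadjusted p under 0.05 there were 18 as deposited (19.8%, against 15.4% of all genes tested) and 4 after scaling (4.40%, against 5.40% of all genes tested). Most genes tested were below 0 as deposited (median -0.22, and -0.01 after scaling), so counts below 0 by list are descriptions only. Folding and dimer assembly covers prefoldin, the CCT chaperonin and the TBC cofactors. In that list 19 of 21 genes were below 0 as deposited and 14 of 21 after scaling, with a scaled median of -0.05. PFDN5, a prefoldin subunit, measured 509 and 456 TPM in libraries labelled UCK2 shRNA, against 554.5 and 654 TPM in the controls. CCT3, a subunit of the chaperonin that folds tubulin, measured 477 and 320.3 TPM, against 536 and 580.1 TPM. TBCA, which holds beta-tubulin, measured 222 and 212 TPM, against 250.3 and 242 TPM. The scaled log2 differences of PFDN5, CCT3 and TBCA were -0.08, -0.27 and 0.06.

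The gamma-tubulin ring complex and its recruitment factors had 16 of 19 genes below 0 as deposited and 12 of 19 after scaling, with a scaled median of -0.10. MZT2B and MZT2A, paralogous genes for a small protein of that complex, were its most abundant genes. MZT2B measured 381 and 305.5 TPM in libraries labelled UCK2 shRNA, against 554 and 579 TPM in the controls. MZT2A measured 191 and 170.1 TPM, against 284 and 338 TPM. Their scaled log2 differences were -0.49 ± 0.23 and -0.54 ± 0.23 (SE; limma adjusted p = 0.92 and 0.902), beside -0.50 for TUBG1. CDK5RAP2, which anchors the complex at the centrosome, measured 63.8 and 58.0 TPM, against 77.7 and 82.2 TPM. Its scaled log2 difference was -0.15.

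The coding starts bear on tubulin mRNA autoregulation. The first 12 bases are given in capitals, since they encode the residues that TTC5 reads in alpha- and beta-tubulin, and TUBG1 is shown beside them because its start differs.
TUBA1B: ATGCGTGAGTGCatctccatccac
TUBB4B: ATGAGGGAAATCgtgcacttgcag
TUBB3: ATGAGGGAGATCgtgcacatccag
TUBG1: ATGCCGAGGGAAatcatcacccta
Of the 3 genes listed for this control, TTC5 measured 11.1 and 11.02 TPM in libraries labelled UCK2 shRNA, against 13.7 and 14.1 TPM in the controls. CNOT11, a subunit of the CCR4-NOT deadenylase, measured 23.7 and 20.5 TPM, against 33.3 and 31.8 TPM. SCAPER, which links TTC5 to that deadenylase, measured 3.59 and 3.88 TPM, against 2.67 and 1.20 TPM in the controls. The scaled log2 differences of TTC5, CNOT11 and SCAPER were -0.09, -0.31 and 0.92, and none was called.

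Of the genes that modify the tubulin tail or its acetylation, 13 of 18 were below 0 as deposited and 10 of 18 after scaling. TPGS2, a subunit of the polyglutamylase complex, measured 65.1 and 69.6 TPM in libraries labelled UCK2 shRNA, against 91.0 and 116.3 TPM in the controls. SIRT2, a deacetylase of alpha-tubulin among other proteins, measured 34.8 and 35.6 TPM, against 47.3 and 54.6 TPM. TTL, the tubulin tyrosine ligase, measured 32.1 and 30.9 TPM, against 39.5 and 35.6 TPM. The scaled log2 differences of TPGS2, SIRT2 and TTL were -0.37, -0.28 and -0.01. For the list of microtubule binding, plus-end and severing proteins, 16 of 24 genes were below 0 as deposited and 10 of 24 after scaling, with a scaled median of 0.01. MAPRE1, a plus-end tracking protein, measured 113.7 and 89.4 TPM, against 134.7 and 122.8 TPM. STMN1, which sequesters tubulin dimers, measured 67.7 and 52.1 TPM, against 88.0 and 68.8 TPM. MAP4, the main microtubule-associated protein of non-neuronal cells, measured 47.5 and 51.5 TPM, against 74.45 and 65.9 TPM. The scaled log2 differences of MAPRE1, STMN1 and MAP4 were -0.11, -0.15 and -0.26.

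**Figure D4:**
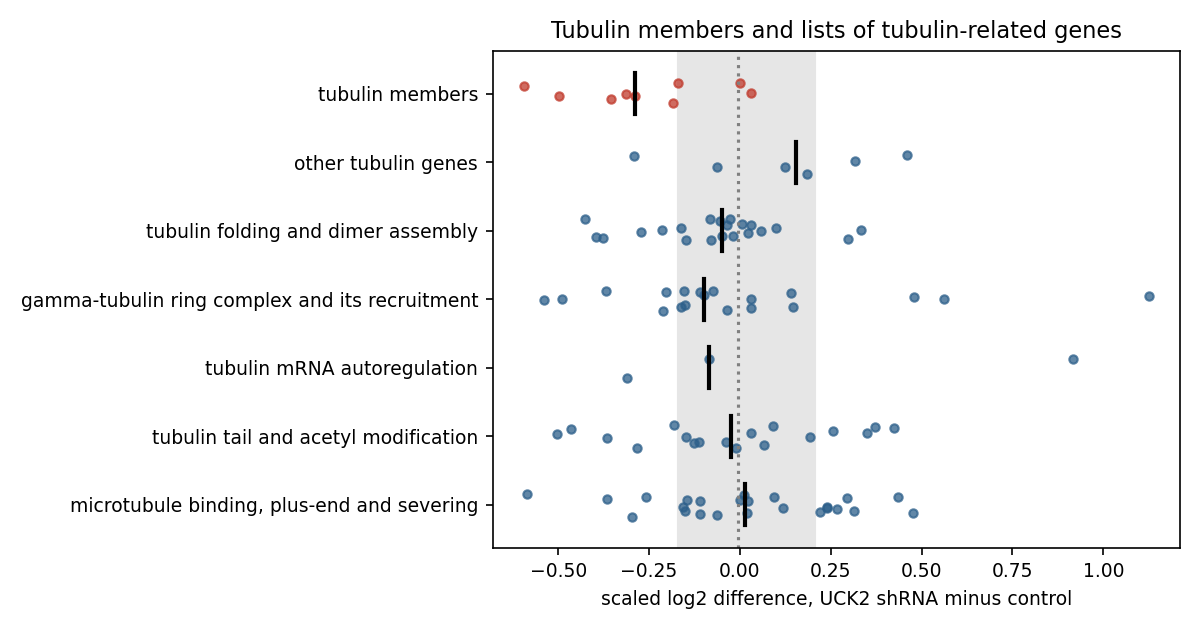
Scaled log2 difference, UCK2 shRNA minus control, of each gene tested (points) by list, with the list's median as a bar. The dotted line and grey band mark the median and the quartiles of all genes tested, -0.17 to 0.21. The tubulin members (red) have a median of -0.29, and the medians of the other tubulin-related lists lie between -0.10 and 0.15. The marker lists are not drawn: the hepatocyte and hepatoma markers have a scaled median of -0.24 over 10 genes tested and the neuronal markers of 0.205 over 2.

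The protein-coding genes closest to TUBB3 in pattern were MRPL54, SSNA1, ZNF703, CTXN1 and ATP6V0C. Likeness was the root mean square distance between scaled log2(TPM + 1) values, centred per gene, over the 4 libraries, among 9058 genes averaging at least 5 TPM. The distances were 0.0302, 0.0368, 0.0419, 0.0449 and 0.0450 in that order, where the median gene lay at 0.384. MRPL54 measured 43.8 and 42.0 TPM in libraries labelled UCK2 shRNA, against 66.25 and 91.3 TPM in the controls. SSNA1 measured 126.3 and 119.3 TPM, against 185.2 and 252.4 TPM. Among the members averaging at least 5 TPM, TUBB2A was nearest to TUBB3 at 0.146, followed by TUBG1 at 0.184 and TUBA1C at 0.189. TUBA1A, TUBB2B and TUBB6 average under 5 TPM and were not among the 9058 genes. Their distances from TUBB3 were 0.457, 0.307 and 0.369.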

How the data were processed

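RNA of 4 MHCC-97H libraries was sequenced, and the authors deposited TPM per gene with hg38 positions. TopHat2 2.0.14 is named beside HTSeq, DESeq and edgeR, per the submitters' processing notes, which give no role to any. How TPM was computed and whether strand was used are not given in the sources used here. Libraries were grouped by title. Genes with a mean of at least 1 TPM were fitted as log2(TPM + 1) by limma 3.58.1 (eBayes with trend, R 4.3.3), with Benjamini-Hochberg adjustment over all genes tested and a threshold of 0.05. p-values measure the spread between libraries, which may be technical. Each library was left out in turn, and scaling, pseudocount, filter, variance model and a replicate block were tried. In each tubulin-related list the 3 genes with the highest mean TPM are named, beside the members and the 5 genes most like TUBB3. Marker, overlapping and neighbouring genes fall outside that rule and were named after their values were seen. The members and lists were chosen with earlier results of these data known. Shared stretches came from exact matches in GENCODE 29 transcripts and identities from Biopython 1.88 alignments. Figures were drawn with matplotlib 3.10.9.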

Additional observations from a re-analysis of the deposited data

How the results depend on the processing

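As deposited, 0 of 14038 genes were called. The count was 9 with median-ratio scaling, 8 with quantile normalization and 0 to 350 when each library was left out (350 without control replicate 1, 53 without control replicate 2). It was 0 with the other pseudocounts, filters, variance model and rescaling. The members' median was -0.18 with quantile normalization and -0.18 when libraries were rescaled after dropping the 50 genes of highest level, and TUBB3 was -0.45 and -0.49 under these. Leaving out each library gave -0.75 to -0.28 for the median and -1.10 to -0.56 for TUBB3. Added after seeing the data, scaling with a library left out gave -0.628 to 0.0784 for the median, -0.98 to -0.21 for TUBB3 and 0 to 23 genes called. The median of 0.0784 came without control replicate 2, leaving out UCK2 shRNA replicate 2 gave -0.0761, and 23 and 18 genes were called without control replicates 1 and 2. The cause of these moves was not tested. With every library kept, no member was called except 4 of 9 under the crossed block, beside 727 of all 14038 genes. The members were listed with the contrast in view, so nothing is read from these calls. The other lists had 0 to 3 genes called with a library left out. The ratio of alpha- to beta-tubulin ran from -0.26 to 0.00 in its difference. With the replicate block 39 genes were called, and the deviations of same-numbered libraries correlated at -0.21, so the numbers are not shown to pair libraries. The crossed block, added later, called 727 of 14038 genes tested, and 8 of the 91 tested in the other lists. Over the 8 members besides TUBB3, 31 of 142 alternative values moved by more than 1 SD. The 142 include values under the other filters, the variance model and both blocks. Those settings cannot change a gene's own difference, so the portion that moved understates how far the others shift it.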
